A study of Mus musculus with 12 samples.

Results

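Liver zonation genes are mRNAs whose level in hepatocytes depends on where the cell lies between the portal vein, where blood enters the liver lobule, and the central vein, where it leaves. The rule for membership is a list of symbols and uses no measured value, and all 35 were found among the 22537 genes of the count table. The pericentral set has 16 genes and the periportal set 19. Etnppl was listed under its older symbol Agxt2l1. The filter on low counts was passed by 34 members, all 16 pericentral and 18 periportal, and left out Ass1.

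RNA was sequenced from livers of female C57BL/6 mice aged 6 months, all fed a high-fat diet over 13 weeks. Each of 4 genotypes (AHR KO, AHR Flox, ARNT KO and ARNT Flox) had 3 mice, read here as 1 library per mouse. The Flox groups are the floxed controls of the knockout lines, a floxed allele being one flanked by recombinase target sites. The title places the loss in the liver, and neither the recombinase line and its promoter nor the deleted part of each gene is given in the sources used here. AHR, the aryl hydrocarbon receptor, is a ligand-activated transcription factor that binds DNA with ARNT, which is also the partner of the hypoxia-inducible factors. The comparisons ask how liver mRNA differs when either factor is lost under this diet, and no group on another diet was analysed here.

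Wnt ligands and R-spondins made by endothelial cells of the central vein keep beta-catenin active in the hepatocytes beside it, and those cells express glutamine synthetase and a set of Wnt feedback genes. Hepatocytes near the portal vein make urea and glucose and break down amino acids, and ammonia that escapes them is bound as glutamine by the pericentral cells. In bulk liver, fewer cells of a zone and less RNA per cell of that zone cannot be told apart.

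Promoter sequence is shown for 3 pericentral genes on which the ARNT comparison turns and for 2 genes, 1 from each set, that hold a TCF/LEF core motif, the site through which beta-catenin acts. The windows run from 250 bases before to 50 after the start site of RefSeq (GRCm38.p6), 5′ to 3′ on the gene's strand. Capitals mark the core CTTTGAT or its reverse complement, and a window with no capitals has no match.
Glul, chr1:153899679-153899978, plus strand: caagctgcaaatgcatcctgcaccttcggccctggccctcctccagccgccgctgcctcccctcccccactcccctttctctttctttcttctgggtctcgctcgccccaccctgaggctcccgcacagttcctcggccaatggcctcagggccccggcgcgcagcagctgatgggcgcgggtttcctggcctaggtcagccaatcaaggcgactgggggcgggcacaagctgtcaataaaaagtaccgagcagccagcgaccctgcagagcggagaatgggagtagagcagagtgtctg
Slc1a2, chr2:102706188-102706487, plus strand: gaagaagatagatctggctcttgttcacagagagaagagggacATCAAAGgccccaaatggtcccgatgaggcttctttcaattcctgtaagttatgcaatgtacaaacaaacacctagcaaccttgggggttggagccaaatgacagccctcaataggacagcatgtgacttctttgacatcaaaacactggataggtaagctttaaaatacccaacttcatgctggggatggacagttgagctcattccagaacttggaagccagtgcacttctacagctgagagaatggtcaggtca
Cldn2, chrX:139800558-139800857, plus strand: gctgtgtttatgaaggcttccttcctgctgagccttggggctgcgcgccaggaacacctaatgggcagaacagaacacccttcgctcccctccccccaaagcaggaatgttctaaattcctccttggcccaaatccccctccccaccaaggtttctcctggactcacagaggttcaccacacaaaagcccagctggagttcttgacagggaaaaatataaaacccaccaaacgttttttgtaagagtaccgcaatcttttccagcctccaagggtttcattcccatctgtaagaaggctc
Sp5, chr2:70474673-70474972, plus strand: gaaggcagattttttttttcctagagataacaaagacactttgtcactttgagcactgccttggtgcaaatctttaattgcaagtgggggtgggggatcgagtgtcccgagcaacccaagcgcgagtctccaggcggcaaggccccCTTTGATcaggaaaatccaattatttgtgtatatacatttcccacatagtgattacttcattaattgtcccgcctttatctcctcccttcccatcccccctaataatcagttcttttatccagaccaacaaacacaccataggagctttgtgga
Hal, chr10:93488518-93488817, plus strand: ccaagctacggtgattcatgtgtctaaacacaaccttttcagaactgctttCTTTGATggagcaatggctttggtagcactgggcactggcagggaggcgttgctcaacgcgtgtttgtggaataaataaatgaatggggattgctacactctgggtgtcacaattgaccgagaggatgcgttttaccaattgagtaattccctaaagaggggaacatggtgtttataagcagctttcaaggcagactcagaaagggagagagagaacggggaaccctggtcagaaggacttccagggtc
The window of Slc1a2 lies inside the gene's span, at the 1 start the table gives for it. The match begins 207 bases before the start site in Slc1a2, 104 before it in Sp5 and 199 before it in Hal. A window was found for 21 of the 35 members, with more than 1 for Etnppl, Rnf43 and Slc38a4, and a gene was counted once if any window held the motif. On both strands together, CTTTGAT occurred in 3 of 10 pericentral genes (30.0%: Sp5, Slc1a2 and Lect2), in 1 of 11 periportal genes (9.09%: Hal) and in 4.29% of the 27025 genes in the table. TTGCGTG, the core bound by AHR with ARNT, occurred in 0 of the 21 members and in 1.35% of all genes in the table. Its short form GCGTG, which every TTGCGTG contains, occurred in 3 of 10 pericentral genes, 4 of 11 periportal genes and 35.2% of all. ACGTG, bound by the hypoxia-inducible factors with ARNT, occurred in 1 of 10 (Oat), 2 of 11 (Ass1 and Tat) and 21.8% of all. These matches describe letters in 300-base windows, and a window without one says nothing about binding elsewhere.

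Libraries held 23585909 to 33255004 counts. Levels are given as TMM-normalised CPM, a measure of relative abundance within a library, and ± is the SD over 3 libraries for a level and the SE of the fit for a log2 change. Arnt stood at 25.2, 23.9 and 19.0 CPM in ARNT KO and at 47.8 to 52.5 in ARNT Flox, a log2 change of −1.15 ± 0.12 (edgeR quasi-likelihood test, adjusted p = 0.00601). Ahr stood at 80.3 to 94.8 CPM in AHR KO and at 53.9 to 78.8 in AHR Flox (log2 change 0.34 ± 0.17, adjusted p = 0.470), so the gene-level count of Ahr does not check that label. All 8 hepatocyte markers were detected. Alb, albumin, stood at 7088, 5491 and 6352 CPM in AHR KO and at 78430, 89270 and 84390 in AHR Flox (log2 change −3.74 ± 0.66, adjusted p = 0.0629 by edgeR, and 3.61e-06 without replicate 3 of ARNT KO). The summed hepatocyte markers were 57290 to 63180 CPM in AHR KO and 128700 to 135100 in AHR Flox with Alb, and 51790 to 56830 and 45840 to 50300 without it. The part of this difference in the zonation genes was not tested. Replicate 3 of ARNT KO stood apart. Its first principal component was 65.3 against −30.9 to 30.3 in the other 11, and Alb was 5740 CPM there, near the AHR KO level, against 51930 and 53680 in its group mates. Cyp1a2, a pericentral cytochrome and AHR target, was 780 CPM there against 291 and 265, and the summed level of 8 cholangiocyte markers was 327 against at most 99.8.

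Against ARNT Flox, 15 of 16 pericentral members had a lower fitted level in ARNT KO, with a median log2 change of −0.30, while 11 of 18 periportal members had a higher one, with a median of 0.04. The median over all 13968 genes tested was 0.01, with 47.4% of them lower and 52.6% higher. Against AHR Flox the 2 sets lay together in AHR KO, at −0.08 (10 of 16 lower) and −0.09 (12 of 18 lower), beside a median of 0.01 over all genes, of which 48.9% were lower. The ARNT effect minus the AHR effect had a median of −0.30 in the pericentral set (12 of 16 below 0, as were 47.9% of all genes) and of 0.18 in the periportal set (12 of 18 above 0, as were 52.1%). No single member passed the threshold of adjusted p = 0.05 in any contrast by edgeR: 0 of 34 in AHR KO, where 0.0788% of all genes were called, 0 of 34 in ARNT KO (0.0573%) and 0 of 34 for the difference of effects (0.043%). At an unadjusted p under 0.05 the member counts were 2, 6 and 6, where 11.9%, 5.88% and 9.51% of all genes passed.

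**Figure D1:**
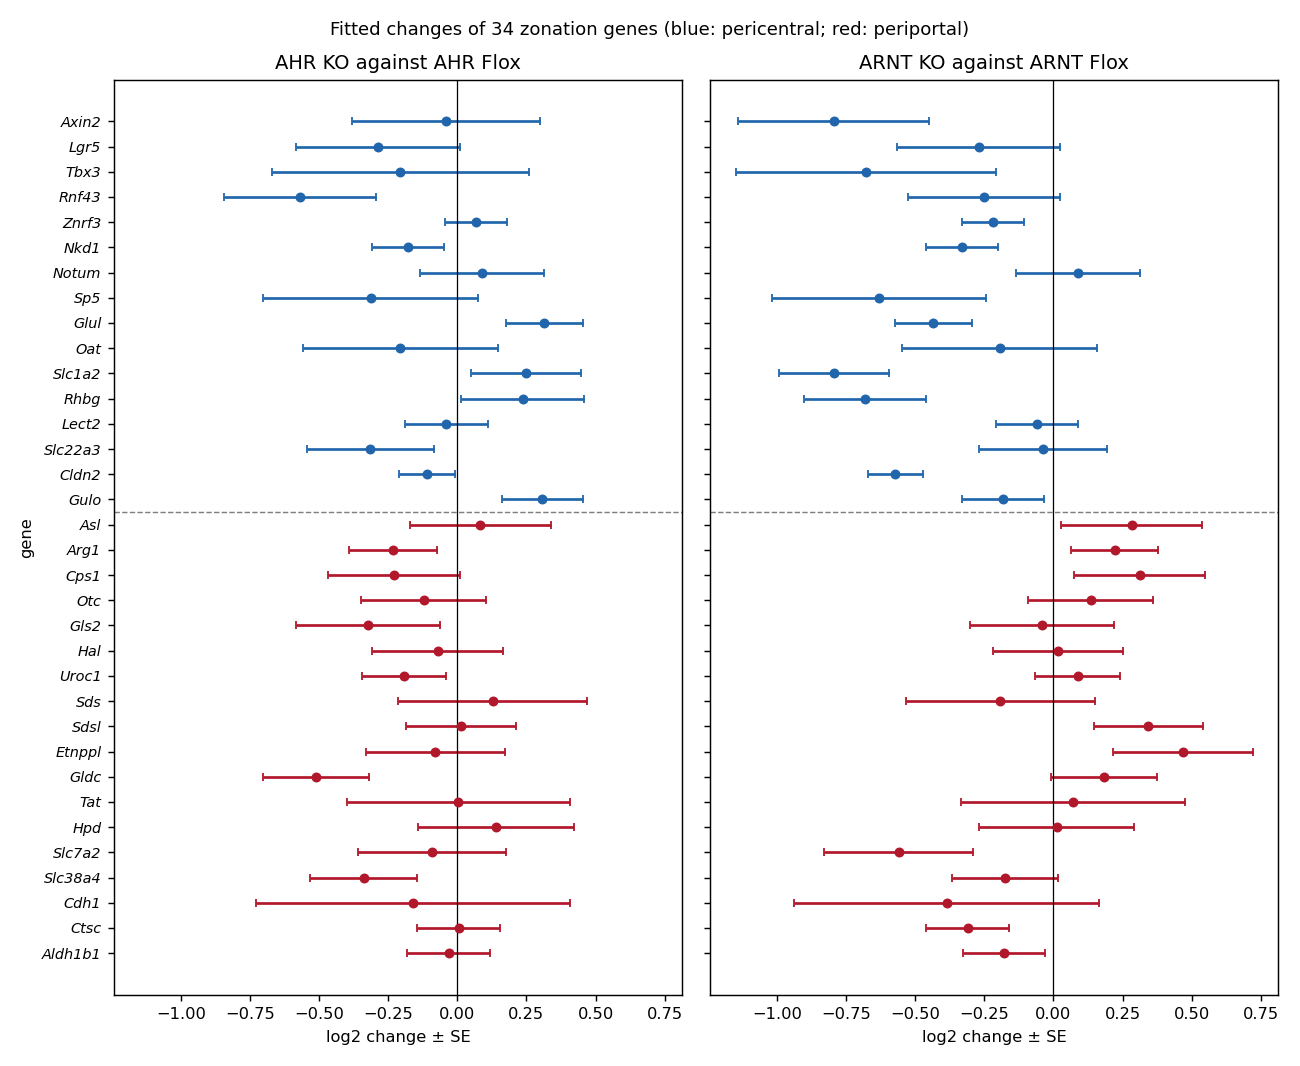
Fitted log2 change (x axis, points with SE bars) of 34 zonation genes (y axis, blue pericentral, red periportal) in AHR KO against AHR Flox and in ARNT KO against ARNT Flox. In the ARNT panel 15 of 16 blue points lie below 0, and in the AHR panel 10 of 16 do.

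Leaving out replicate 3 of ARNT KO left 11 of 16 pericentral members lower, with a median of −0.24, and gave a periportal median of 0.19. Ass1 passed the filter in that setting, so its periportal medians cover 19 members and its member counts 35. Under that setting the difference of effects had a pericentral median of −0.11 and a periportal median of 0.37. Cldn2 and Rhbg then passed the threshold in ARNT KO, both lower, where 1.37% of all genes were called, and 0 members passed in AHR KO (0.966%) or for the difference of effects (1.38%). At an unadjusted p under 0.05 the counts without that library were 5, 9 and 10 members, against 16.8%, 16.4% and 17.2% of all genes, and 13 members between the 2 Flox groups against 28.3%. DESeq2 on all 12 libraries called 0 members in AHR KO (3.19% of all genes called), Slc1a2 and Cldn2 lower in ARNT KO (0.402%), and Glul and Slc1a2 for the difference of effects (1.08%). limma-voom called 0 members in every contrast.

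Among genes that handle glutamine, glutamate and ammonia, the pericentral enzymes and transporters that act after ureagenesis, all 4 had lower fitted levels in ARNT KO, with a median of −0.56. When replicate 3 of ARNT KO was left out, 3 of 4 did, with a median of −0.51. Glul encodes glutamine synthetase, which joins ammonia to glutamate. It stood at 1466, 1629 and 1777 CPM in AHR Flox, at 2227, 1834 and 1995 in AHR KO, at 2100, 1861 and 1941 in ARNT Flox, and at 1541, 1586 and 1240 in ARNT KO. Every AHR KO library was above every AHR Flox library, and every ARNT KO library was below every ARNT Flox library. Glul was the only member with that pair of separations, which 113 genes, 0.809% of those tested, also showed. Its log2 change was 0.31 ± 0.14 in AHR KO (adjusted p = 0.402) and −0.43 ± 0.14 in ARNT KO (adjusted p = 0.637). The 2 effects differed by −0.75 ± 0.20 (adjusted p = 0.288 by edgeR's quasi-likelihood test and adjusted p = 0.00508 by DESeq2). The level in ARNT KO overlapped that of AHR Flox, and the level in ARNT Flox overlapped that of AHR KO.

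Slc1a2 encodes the glutamate transporter GLT-1, through which pericentral cells take up glutamate. Its levels were 286, 408 and 399 CPM in AHR Flox and 568, 333 and 398 in AHR KO, which overlapped. The ARNT KO libraries, at 302, 333 and 249, all lay below those of ARNT Flox, at 490, 488 and 554. The log2 change in ARNT KO was −0.79 ± 0.20 (adjusted p = 0.465), and its effect there was lower than in AHR KO by 1.04 ± 0.28 on the log2 scale (adjusted p = 0.288 by edgeR and 0.0407 by DESeq2). Without replicate 3 of ARNT KO the change was −0.68 ± 0.21 (adjusted p = 0.139). Rhbg, an ammonia transporter of the Rh family, stood at 36.0, 36.7 and 39.4 CPM in ARNT Flox and at 17.1, 21.6 and 31.1 in ARNT KO. The other 6 libraries held 11.5 to 22.3 CPM, so ARNT Flox was the group set apart. The log2 change in ARNT KO was −0.68 ± 0.22 (adjusted p = 0.643), and without replicate 3 it was −0.95 ± 0.20 (adjusted p = 0.0422). In the GENCODE M21 transcripts, 60.4% of the 50-base windows of Rhbg also occur in the overlapping model Gm38392, so its count is uncertain.

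Oat, ornithine aminotransferase, which feeds glutamate to glutamine synthetase, overlapped in all 4 groups and varied widely within them. It stood at 1520, 1656 and 1881 CPM in AHR Flox and at 2250, 1319 and 814 in AHR KO. In ARNT Flox it stood at 1119, 1332 and 1890, and in ARNT KO at 1435, 1573 and 787. The fitted changes were −0.21 ± 0.35 in AHR KO and −0.19 ± 0.35 in ARNT KO, both smaller than their errors. The latter was 0.06 ± 0.34 without replicate 3 of ARNT KO.

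**Figure D2:**
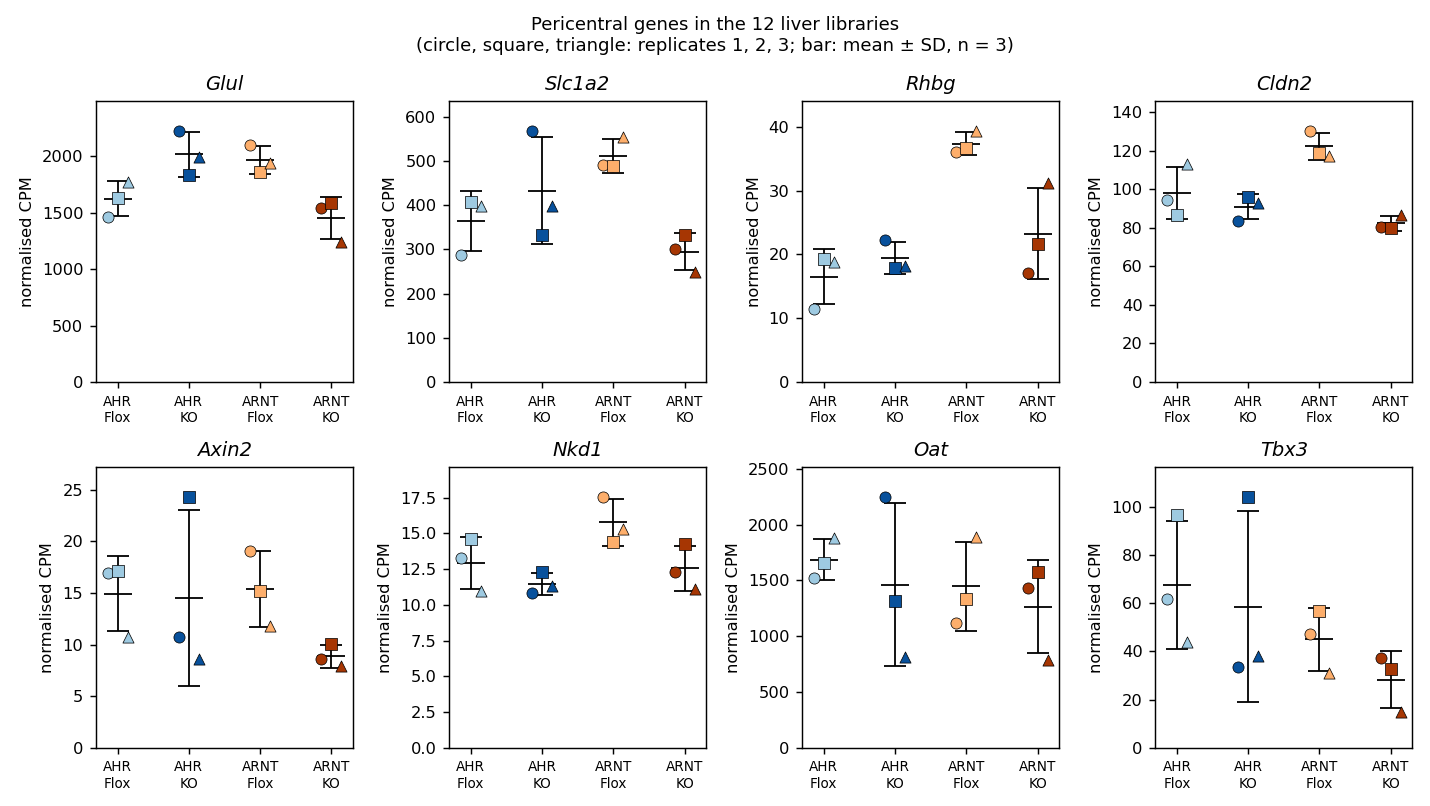
Normalised CPM (y axis, from 0) of 8 pericentral genes in the 4 groups (x axis), with 1 point per library and bars for mean ± SD (n = 3). For Glul, Slc1a2, Rhbg and Cldn2 all 3 ARNT Flox points lie above all 3 ARNT KO points.

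The 8 Wnt feedback and target genes report beta-catenin activity. Their median log2 change was −0.30 in ARNT KO, with 7 of 8 lower, and −0.19 in AHR KO, with 6 of 8 lower. The ARNT KO median without its replicate 3 was −0.24, with 6 of 8 lower. Axin2, a scaffold of the complex that destroys beta-catenin and itself a Wnt target, stood at 19.1, 15.2 and 11.8 CPM in ARNT Flox and at 8.60, 10.1 and 7.93 in ARNT KO. Those groups did not overlap, and the log2 change was −0.79 ± 0.34 (adjusted p = 0.815, edgeR). In AHR Flox it stood at 17.0, 17.1 and 10.8, and in AHR KO at 10.8, 24.3 and 8.56, so 1 AHR KO library held the highest level of all 12 and another a level in the ARNT KO range. Nkd1, an inhibitor of Wnt signalling induced by it, stood at 17.6, 14.4 and 15.3 CPM in ARNT Flox and at 12.3, 14.2 and 11.1 in ARNT KO. The gap between those groups was narrow, and the change was −0.33 ± 0.13 (adjusted p = 0.750). It stood at 13.2, 14.6 and 10.97 CPM in AHR Flox and at 10.8, 12.3 and 11.3 in AHR KO.

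Lgr5 encodes a receptor for R-spondins on pericentral hepatocytes. It stood at 13.4, 17.98 and 12.5 CPM in AHR Flox, at 13.1, 13.0 and 9.91 in AHR KO, at 16.1, 12.2 and 16.5 in ARNT Flox, and at 13.5, 17.3 and 6.26 in ARNT KO. All 4 groups overlapped, and the lowest value was that of replicate 3 of ARNT KO. The log2 change in ARNT KO was −0.27 with that library and 0.05 without it. Rnf43 and Znrf3 encode ligases that remove Wnt receptors from the cell surface. Rnf43 stood at 65.4, 44.7 and 37.1 CPM in AHR Flox and at 29.8, 39.0 and 30.4 in AHR KO, with a log2 change of −0.57 ± 0.27 (adjusted p = 0.443). It stood at 58.8, 39.4 and 36.8 in ARNT Flox and at 43.1, 46.6 and 24.0 in ARNT KO, with overlap in both pairs. Znrf3 lay between 14.5 and 21.7 CPM in all libraries, with a log2 change of −0.22 ± 0.11 in ARNT KO (adjusted p = 0.861). Of the other 3 genes, Tbx3, a transcription factor, ranged most, from 15.0 to 104 CPM. Notum, a secreted enzyme that inactivates Wnt ligands, ranged from 48.5 to 102 CPM, and Sp5, a transcription factor, from 1.78 to 6.43. The lowest value of each was in replicate 3 of ARNT KO. Notum shares 24.3% of its 50-base windows with the antisense model Notumos, and strand use in the counting is not given in the sources used here.

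Cldn2, a tight junction claudin, gave the smallest p of any member in ARNT KO. It stood at 130, 119 and 118 CPM in ARNT Flox and at 80.4, 79.9 and 86.7 in ARNT KO, a log2 change of −0.57 ± 0.10 or 1.49-fold. The adjusted p was 0.159 by edgeR's quasi-likelihood test, 0.000237 by DESeq2 and 0.0241 by edgeR without replicate 3 of ARNT KO. The AHR groups overlapped, at 94.5, 87.0 and 113 in AHR Flox and at 83.7, 96.3 and 92.8 in AHR KO. Gulo, the last enzyme of vitamin C synthesis, stood at 544, 720 and 606 CPM in AHR Flox and at 859, 756 and 699 in AHR KO (log2 change 0.31 ± 0.15, adjusted p = 0.442). It stood at 666, 615 and 687 in ARNT Flox and at 604, 659 and 471 in ARNT KO, and its 2 effects differed by −0.49 ± 0.21 (adjusted p = 0.495). Lect2, a secreted protein, lay between 175 and 262 CPM in all libraries. Slc22a3, an organic cation transporter, lay between 6.70 and 14.8 CPM, and 8.27% of its 50-base windows are shared with Plg, which held 57784 to 116311 counts, so its count is uncertain.

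By separation of the groups, 6 of 16 pericentral members had all 3 ARNT KO libraries below all 3 ARNT Flox libraries (Glul, Axin2, Nkd1, Slc1a2, Rhbg and Cldn2), as did 4.9% of all genes tested, and 0 of 18 periportal members did. Higher in all ARNT KO libraries were 0 pericentral members and 1 periportal member, Etnppl (5.94% of all genes). In the AHR pair, Glul was the 1 member higher without overlap (11.7% of all genes), and Gls2, Arg1, Gldc and Slc38a4, all periportal, were lower without overlap (9.46%).

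All 4 tested urea cycle genes had their lowest mean level in ARNT Flox. Cps1 encodes carbamoyl phosphate synthetase, the entry enzyme of the cycle. It stood at 3022, 3783 and 3256 CPM in AHR Flox, at 3233, 2948 and 2402 in AHR KO, at 1706, 2345 and 3049 in ARNT Flox, and at 3572, 3067 and 2174 in ARNT KO. Neighbouring groups overlapped, with log2 changes of −0.23 ± 0.24 in AHR KO and 0.31 ± 0.24 in ARNT KO. Arg1, arginase, which releases urea, stood at 1662, 1576 and 1580 CPM in AHR Flox and at 1492, 1471 and 1137 in AHR KO, with no overlap and a log2 change of −0.23 ± 0.16 (adjusted p = 0.612). In ARNT Flox it stood at 1011, 1375 and 1469, and in ARNT KO at 1485, 1604 and 1406, which overlapped (0.22 ± 0.16, adjusted p = 0.947).

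Otc, ornithine transcarbamylase, stood at 558, 645 and 577 CPM in AHR Flox, at 604, 592 and 440 in AHR KO, at 388, 436 and 449 in ARNT Flox, and at 612, 498 and 287 in ARNT KO. Asl, argininosuccinate lyase, stood at 727, 921 and 739 in AHR Flox, at 937, 888 and 705 in AHR KO, at 323, 514 and 707 in ARNT Flox, and at 706, 699 and 473 in ARNT KO. Replicate 1 of ARNT Flox was the lowest of the 12 libraries for Cps1, Arg1 and Asl, and replicate 3 of ARNT KO for Otc. All 4 urea cycle genes had higher fitted levels in ARNT KO than in ARNT Flox, from 0.14 to 0.31, each with an adjusted p of at least 0.947. These changes were 0.27 to 0.49 without replicate 3 of ARNT KO, that of Otc being 0.39 against 0.14 with it.

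Ass1, argininosuccinate synthetase, is known as an abundant liver enzyme, yet held only 3 to 14 counts in each library and 76 in all. The ARNT KO libraries held 5, 14 and 3 counts, the ARNT Flox libraries 4, 3 and 7, the AHR KO libraries 4, 11 and 6, and the AHR Flox libraries 8, 5 and 6. In the GENCODE M21 transcripts, 38.6% of its 50-base windows are shared with Gm5424, which was listed at 0 in all libraries. How reads with more than 1 match were counted is not given in the sources used here, its part in the low count was not tested, and no change is given for Ass1.

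**Figure D3:**
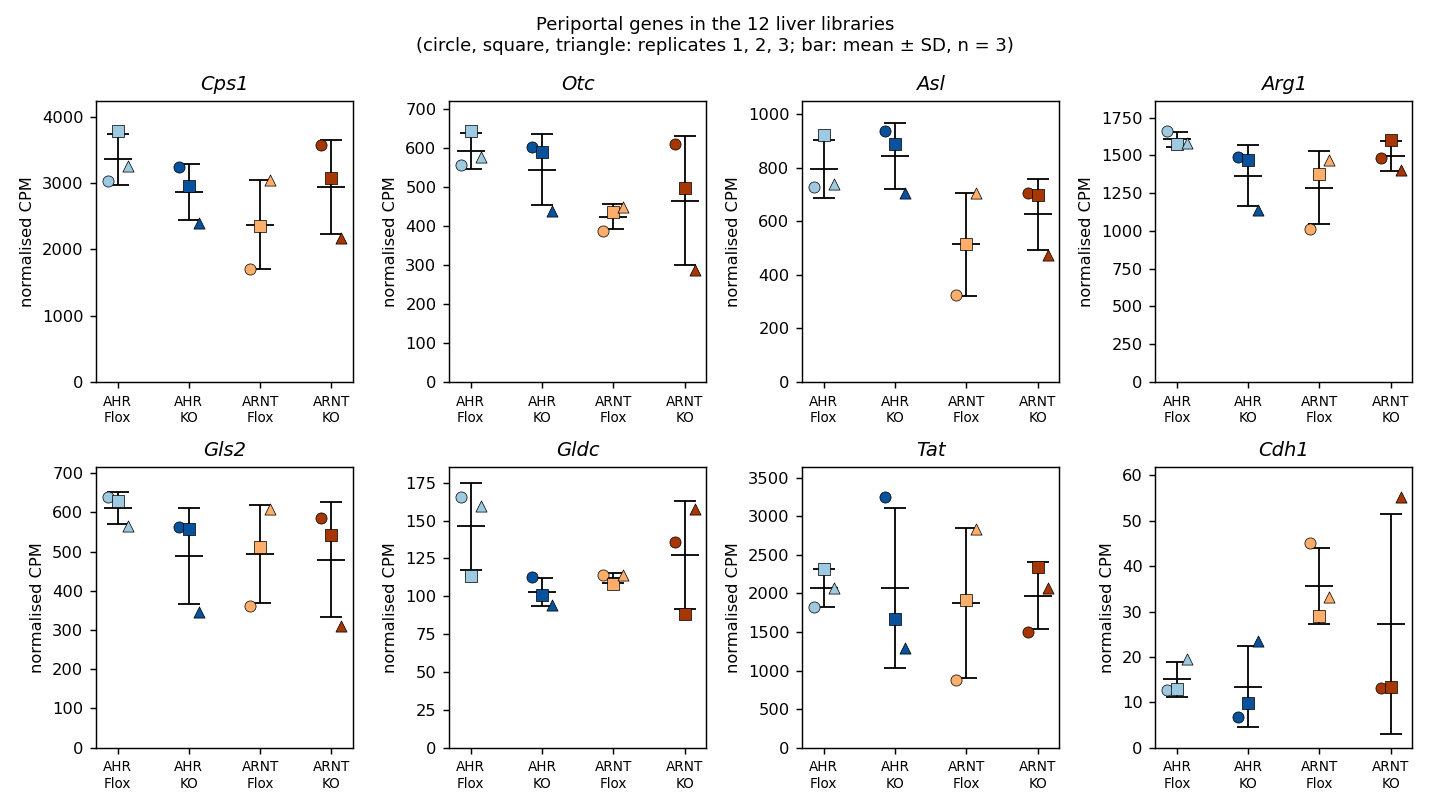
Normalised CPM (y axis, from 0) of 8 periportal genes in the 4 groups (x axis), with 1 point per library and bars for mean ± SD (n = 3). Replicate 1 of ARNT Flox is the lowest point for Cps1, Asl, Arg1 and Tat, and Cdh1 is highest in replicate 3 of ARNT KO.

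The 9 genes grouped here under amino acid breakdown had medians of −0.07 in AHR KO (5 of 9 lower) and 0.07 in ARNT KO (7 of 9 higher). That group includes Etnppl, which acts on phosphoethanolamine and had the largest rise of the 9 in ARNT KO, 0.47. Gls2, the liver glutaminase that supplies ammonia to Cps1, stood at 640, 630 and 564 CPM in AHR Flox and at 561, 556 and 347 in AHR KO. Those groups were separated by a narrow gap, and the log2 change was −0.32 ± 0.26 (adjusted p = 0.684). In ARNT Flox it stood at 361, 511 and 609 and in ARNT KO at 585, 543 and 311, with full overlap. Gldc, the decarboxylase of the glycine cleavage system, stood at 166, 113 and 160 CPM in AHR Flox and at 112, 101 and 94.3 in AHR KO. It was the periportal member with the smallest p in AHR KO (−0.51 ± 0.19, adjusted p = 0.318, edgeR), and its groups were nearly touching. In ARNT Flox it stood at 114, 108 and 114 and in ARNT KO at 136, 88.3 and 158, and the 2 effects differed by 0.69 ± 0.27 (adjusted p = 0.452).

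Histidine breakdown begins with Hal and continues with Uroc1. Hal, histidine ammonia lyase, stood at 381, 369 and 315 CPM in AHR Flox, at 346, 356 and 312 in AHR KO, at 281, 326 and 319 in ARNT Flox, and at 418, 342 and 177 in ARNT KO. Replicates 1 and 3 of ARNT KO were thus the highest and lowest of the 12. Uroc1, urocanase, lay between 515 and 769 CPM, with log2 changes of −0.19 ± 0.15 in AHR KO and 0.09 ± 0.15 in ARNT KO.

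Sds and Sdsl encode serine dehydratase and its relative. Sds stood at 344, 268 and 308 CPM in AHR Flox, at 404, 292 and 309 in AHR KO, at 179, 351 and 544 in ARNT Flox, and at 232, 268 and 440 in ARNT KO. Its lowest and highest values of all 12 libraries both fell within ARNT Flox. Sds also shares 18.5% of its 50-base windows with Plbd2. Sdsl stood at 7.38, 9.83 and 12.8 CPM in ARNT Flox and at 11.2, 10.6 and 16.1 in ARNT KO (0.34 ± 0.20, adjusted p = 0.897, and 0.13 ± 0.18 without replicate 3 of ARNT KO), and lay between 10.3 and 12.4 CPM in the AHR groups.

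Etnppl, which breaks down phosphoethanolamine, stood at 48.3, 85.7 and 87.0 CPM in ARNT Flox and at 90.2, 119 and 96.6 in ARNT KO, without overlap (0.47 ± 0.25, adjusted p = 0.869). It stood at 93.2, 95.9 and 101 in AHR Flox and at 120, 59.4 and 94.9 in AHR KO. Tat and Hpd act in tyrosine breakdown and had the highest levels per length of the periportal set. Tat ranged from 880 to 3252 CPM and Hpd from 1313 to 3860, with the highest value of both in replicate 1 of AHR KO.

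The 2 transporters and the 3 remaining periportal genes all had lower fitted levels in ARNT KO, with medians of −0.37 and −0.31, where 11 of the 18 periportal members had higher ones. Without replicate 3 of ARNT KO, Slc38a4 was at 0.01 and the other 4 remained lower. Slc7a2, a carrier of arginine and other cationic amino acids, stood at 933, 1261 and 1725 CPM in ARNT Flox and at 738, 1029 and 892 in ARNT KO (−0.56 ± 0.27, adjusted p = 0.840), and lay between 716 and 1430 in the AHR groups. Slc38a4, a carrier of neutral amino acids, stood at 1827, 1863 and 1994 CPM in AHR Flox and at 1760, 1456 and 1279 in AHR KO, without overlap (−0.34 ± 0.19, adjusted p = 0.530). In ARNT Flox it stood at 1476, 1745 and 1992 and in ARNT KO at 1695, 1804 and 1119. Ctsc, the protease cathepsin C, stood at 142, 145 and 127 CPM in ARNT Flox and at 132, 98.1 and 104 in ARNT KO (−0.31 ± 0.15, adjusted p = 0.843), and lay between 101 and 147 in the AHR groups.

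Cdh1, E-cadherin, which cholangiocytes also carry, had the widest range of any tested member. It stood at 12.8, 12.9 and 19.6 CPM in AHR Flox, at 6.83, 9.97 and 23.6 in AHR KO, at 45.1, 28.9 and 33.1 in ARNT Flox, and at 13.2, 13.4 and 55.3 in ARNT KO. The highest value, in replicate 3 of ARNT KO, was found in the library with the highest summed cholangiocyte markers. In that library Spp1 was 280 CPM, against 38.9 and 71.6 in its group mates, and Epcam 12.2 against 2.08 and 3.56. The part of these markers in the Cdh1 value was not tested. Without that library the log2 change of Cdh1 in ARNT KO was −1.42 ± 0.42 (adjusted p = 0.127), against −0.39 ± 0.55 with it (adjusted p = 0.998). Aldh1b1, a mitochondrial aldehyde dehydrogenase, stood at 158, 186 and 184 CPM in ARNT Flox and at 147, 126 and 193 in ARNT KO, and lay between 102 and 134 in the AHR groups.

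The library view shows how far single animals carried these patterns. Each member's log2 CPM was taken relative to its own mean over the 12 libraries, and the median over each set was read per library. Replicate 3 of ARNT KO had the lowest pericentral median, −0.57, with 1 of 16 members above its 12-library median and 10 of 16 members at their lowest there. Its periportal median was −0.22, and 6 of 18 periportal members were at their lowest there, while 3 were at their highest. Its group mates had pericentral medians of −0.05 and −0.03 and periportal medians of 0.09 and 0.05. Replicate 1 of ARNT Flox had the lowest periportal median, −0.42, with a urea cycle median of −0.61 and 7 of 18 members at their lowest, and also the highest pericentral median, 0.28.

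**Figure D4:**
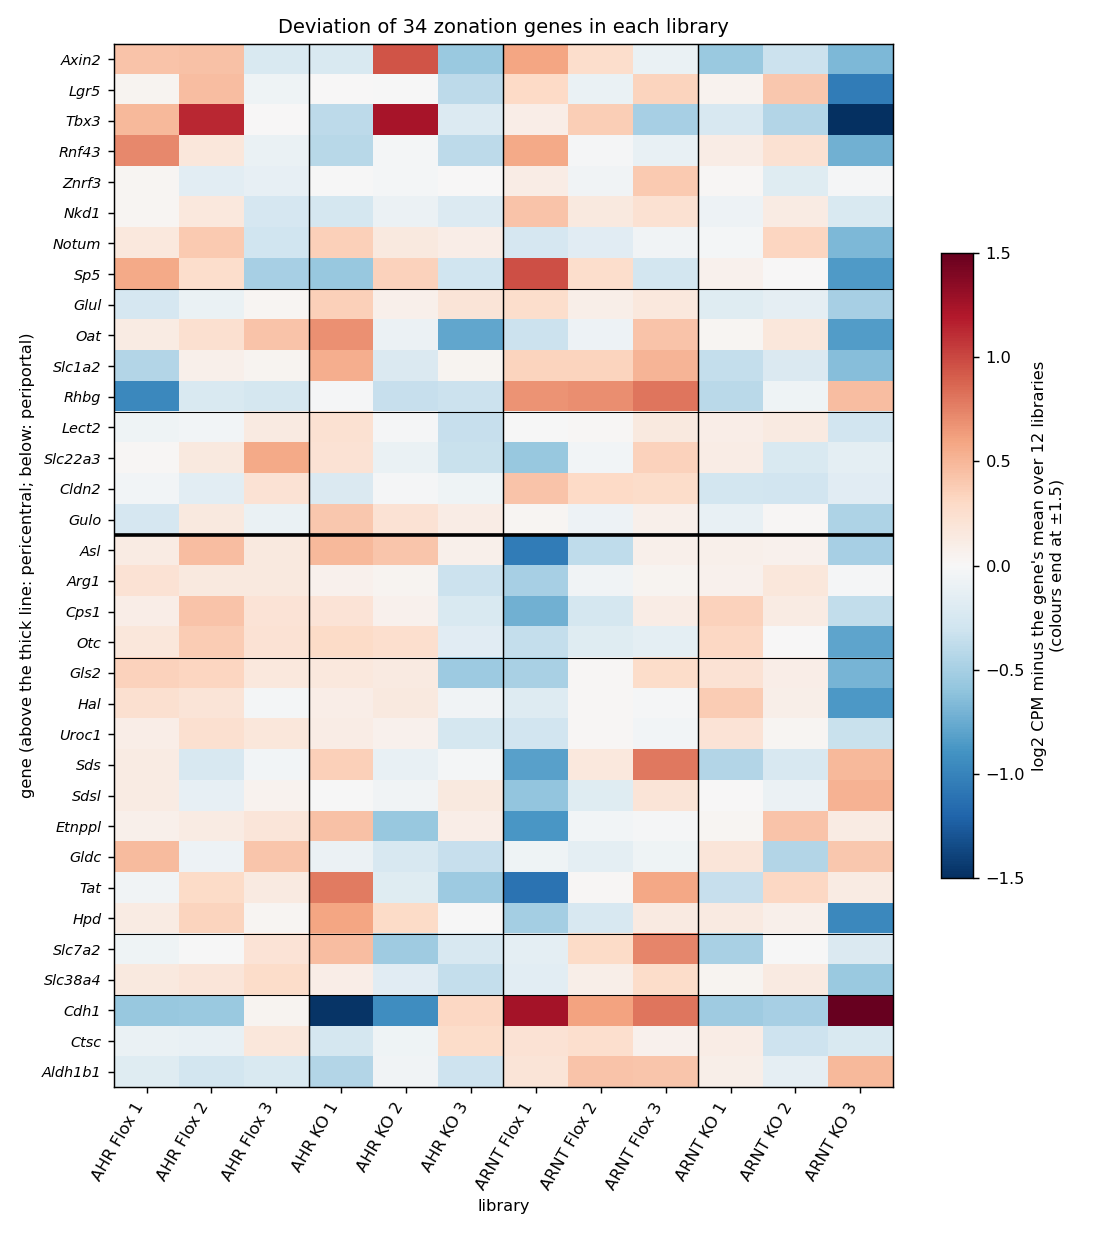
Colour gives log2 CPM minus the gene's mean over the 12 libraries (columns) for 34 zonation genes (rows, pericentral above the thick line), with colours ending at ±1.5. Replicate 3 of ARNT KO is blue for most pericentral genes, and replicate 1 of ARNT Flox is blue for the urea cycle genes at the top of the lower block.

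Periportal minus pericentral median was −0.70 in replicate 1 of ARNT Flox and −0.04 and −0.07 in its group mates. It was 0.14, 0.08 and 0.34 in ARNT KO. The values were thus below 0 in all 3 ARNT Flox and above 0 in all 3 ARNT KO libraries. In the AHR groups they were 0.09, 0.01 and 0.24 in AHR Flox and 0.13, −0.03 and 0.05 in AHR KO, which overlapped. Group means were 0.11 ± 0.12 (SD, n = 3) for AHR Flox, 0.05 ± 0.08 for AHR KO, −0.27 ± 0.37 for ARNT Flox and 0.19 ± 0.14 for ARNT KO. The SD exceeded the size of the mean in every group but ARNT KO.

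**Figure D5:**
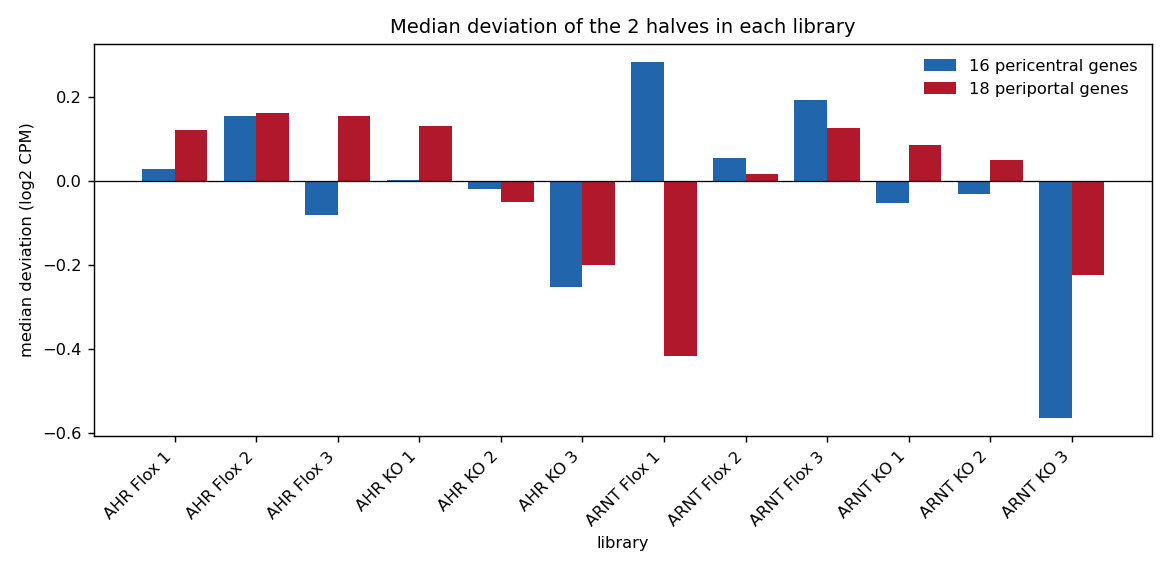
Median over the members of each set of log2 CPM minus the gene's 12-library mean (y axis) in each library (x axis), blue for 16 pericentral and red for 18 periportal genes. The bars point apart most in replicate 1 of ARNT Flox (0.28 and −0.42), and both lie below 0 in replicate 3 of ARNT KO.

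The 2 floxed control groups were compared with each other because each knockout is read against its own control. The counts of members that separated or passed here were near the shares over all genes. Of the pericentral members, Glul, Slc1a2, Rhbg and Cldn2 were higher in all ARNT Flox than in all AHR Flox libraries (18.1% of all genes were), and 0 were lower. By the fit, 11 of 16 pericentral members were higher in ARNT Flox (49.9% of all genes were) and 13 of 18 periportal members lower (50.1%), with medians of 0.06 and −0.24. Of the periportal members, Cdh1 and Aldh1b1 were higher, and Uroc1, Asl, Arg1, Otc and Etnppl were lower without overlap (17.7% of all genes). By edgeR's quasi-likelihood test 0 of 34 members were called, where 0.329% of all genes were. That is 46 genes, and 23 with the replicate block, with 0 members called under the block too. At an unadjusted p under 0.05, 7 members passed, where 19.9% of all genes did. The largest changes of each set were Rhbg at 1.18 ± 0.22 (adjusted p = 0.0615) and Cdh1 at 1.24 ± 0.57 (adjusted p = 0.251). The fitted change was 0.58 ± 0.15 for Aldh1b1 (adjusted p = 0.115) and −0.63 ± 0.26 for Asl (adjusted p = 0.213).

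Some alternatives called members between the control groups, where the edgeR fit of all 12 libraries called 0. Others, such as limma-voom, also called 0 members, and limma-voom gave 31 calls over all genes against 46. DESeq2 called Rhbg and Aldh1b1 higher (4.18% of all genes called), and leaving out replicate 3 of ARNT KO gave Rhbg and Aldh1b1 higher and Otc lower (10.9%). Of the 6 pericentral genes that separated the ARNT pair, 4 were thus also higher in ARNT Flox than in AHR Flox. For those 4 genes, a high level in ARNT Flox and a low level in ARNT KO cannot be told apart from these groups. The ARNT KO levels of Glul, Slc1a2 and Rhbg overlapped the AHR Flox levels, and those of Cldn2 lay just below them, at no more than 86.7 CPM against at least 87.0. Summed markers of some other cell types also differed between the control groups, though 0 of their markers were called by edgeR with all 12 libraries (0.329% of all genes were). In that fit 9 of 9 endothelial, 7 of 8 Kupffer cell, 8 of 8 stellate cell and 7 of 7 lymphocyte markers were higher in ARNT Flox. Without replicate 3 of ARNT KO, edgeR called 4 Kupffer cell and 3 lymphocyte markers higher there, where 10.9% of all genes were called. It called 0 endothelial, stellate cell or cholangiocyte markers in that setting. The summed level of 9 endothelial markers was 342 to 388 CPM in ARNT Flox and 281 to 330 in AHR Flox, with 0 markers at 0, and it was 322 to 377 in ARNT KO and 254 to 327 in AHR KO. For 8 Kupffer cell markers the sums were 556 to 574 and 358 to 538 in ARNT Flox and AHR Flox, for 8 stellate cell markers 378 to 473 and 289 to 368, and for 7 lymphocyte markers 7.92 to 11.5 and 5.38 to 7.15. Sums of 8 cholangiocyte markers overlapped, at 86.05 to 133.7 CPM in ARNT Flox and 78.37 to 86.88 in AHR Flox. The part of these marker shifts in the zonation genes was not tested.

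Genes of the Wnt pathway other than the members passed the threshold in none of the 4 contrasts by edgeR. DESeq2 called 2 of them, Ctnnb1 and Wif1, both lower in ARNT Flox than in AHR Flox (adjusted p = 0.00615 and 0.0307). It called 4.18% of all genes in that contrast, and limma-voom called 0 of these Wnt pathway genes. Without replicate 3 of ARNT KO, edgeR called Lrp5 and Dkk3 higher and Wif1 lower in ARNT Flox than in AHR Flox, where 10.9% of all genes were called. At an unadjusted p under 0.05, 2 passed in ARNT KO, Porcn and Wif1, where 5.88% of all genes did. Of 10 Wnt ligands and R-spondins 8 were tested, with median log2 changes of 0.02 in AHR KO and −0.08 in ARNT KO. Rspo3, the R-spondin of central vein endothelium, stood at 8.25, 7.92 and 9.09 CPM in ARNT Flox, at 7.54, 7.63 and 6.40 in ARNT KO, and at 5.64 to 7.70 in the AHR groups. ARNT KO was lower than ARNT Flox in all libraries (−0.23 ± 0.13, adjusted p = 0.877, edgeR), as for 4.9% of all genes tested. Wnt2 and Wnt9b, Wnt ligands of liver endothelium, overlapped between all groups, at 1.97 to 5.82 and 0.886 to 2.27 CPM. Of 17 receptor and secretion genes 14 were tested, with medians of −0.02 and −0.04. Porcn, the acyltransferase that Wnt ligands need for secretion, stood at 4.79, 4.13 and 4.32 CPM in ARNT Flox and at 3.01, 2.86 and 2.15 in ARNT KO (−0.72 ± 0.21, adjusted p = 0.569, edgeR). In AHR Flox it stood at 3.95, 3.83 and 2.40 and in AHR KO at 4.001, 3.98 and 5.14.

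Of 18 intracellular and nuclear Wnt pathway genes 17 were tested, with medians of −0.10 in AHR KO and −0.05 in ARNT KO. In AHR KO, 6 of them were lower and 1 higher at an unadjusted p under 0.05, which 11.9% of all genes reached. Ctnnb1, beta-catenin itself, lay between 229 and 284 CPM in all libraries, with log2 changes of 0.13 ± 0.07 in ARNT KO and −0.21 ± 0.07 in ARNT Flox against AHR Flox. Of 11 secreted inhibitors 6 were tested. Wif1, which binds Wnt ligands, stood at 1.16, 0.923 and 1.57 CPM in AHR Flox and at 3.32, 1.65 and 3.32 in AHR KO (1.19 ± 0.34, adjusted p = 0.182). It stood at 0.536, 0.407 and 0.377 in ARNT Flox and at 0.652, 1.30 and 0.718 in ARNT KO (0.99 ± 0.39, adjusted p = 0.760). In both pairs every knockout library was above every control library, as for 11.7% of all genes in the AHR pair and 5.94% in the ARNT pair. These levels of Wif1 were low, with no library above 3.32 CPM.

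Levels of different genes were compared per kilobase of exon. In AHR Flox, Hpd had the highest mean level per length, 1359 CPM per kilobase, followed by Tat at 860, Arg1 at 721, Oat at 714, Cps1 at 604 and Glul at 489. Arg1 and Oat differed by less than their spreads. The Wnt feedback genes were low, from 34.8 CPM per kilobase for Notum to 1.43 for Lgr5, and Ass1 was at 0.0955.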

How the data were processed

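Per the labels, total RNA was extracted from liver with Trizol, and poly-A RNA libraries were made with the NEBNext Ultra II kit. The authors deposited raw gene counts for 12 libraries. DESeq2 1.20.0, R 3.5.1, STAR (2.5.4b and 2.6.0c), bcl2fastq 2.20 and the build mm10 are listed in the submitters' processing notes. Neither the tool that counted reads, nor its use of strand, nor its gene models is given in the sources used here. All libraries entered 1 edgeR 4.0.16 quasi-likelihood fit (R 4.3.3; TMM; filterByExpr with a minimum count of 10 and a total of 15), which kept 13968 genes and 99.98% of counts, with Benjamini-Hochberg adjustment over all of them and a threshold of 0.05. The common biological coefficient of variation was 17.5%, which with 3 libraries a group limits the changes that can pass. The steps were tested on simulated data.

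Membership follows a list of symbols, and that list and the other gene lists were drawn up with earlier results of these data known, so medians and counts of a list carry no p. Genes were named by a rule: 11 members fixed by name, any member called, the 5 members with the smallest p per contrast and set, and for other lists the called genes and the 1 with the smallest p; Cyp1a2, Spp1, Epcam, Wnt2, Wnt9b, Ahr and Arnt and some values of the other members were added after their values were seen. Alternatives were DESeq2 1.42.0, limma-voom (limma 3.58.1), 3 other scalings, 2 other filters, the contrast's own groups, a replicate block, and each of the 12 libraries left out. One gene of a further list is not reported here. Nothing in the labels pairs libraries by number. Same-numbered libraries of the 2 Flox groups deviated together from their group means (correlations of 0.327, 0.153 and 0.101 across genes), so the blocked count is printed beside that contrast. Libraries of a group differed by more than sampling noise (chi-square per degree of freedom 17.5 to 249). Positions and promoters are RefSeq GRCm38.p6, exon lengths and shared 50-base windows GENCODE M21.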

Additional observations from a re-analysis of the deposited data

How the results depend on the processing

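Of the 34 members, 17 in AHR KO, 13 in ARNT KO, 12 for the difference of effects and 8 between the Flox groups had a fitted change of the other sign under at least 1 alternative. Among the changes the text prints, 7 values turned, all without a single library. In ARNT KO the range without single libraries was −0.59 to 0.054 for Lgr5, −0.38 to 0.059 for Oat and −0.30 to 0.013 for Slc38a4, each positive without replicate 3 of ARNT KO and Oat also without replicate 3 of ARNT Flox (0.045). It was −0.11 to 0.39 for Otc and −0.034 to 0.23 for Uroc1, negative without replicate 1 of ARNT KO. In AHR KO, Oat ranged from −0.67 to 0.074, positive without replicate 3 of AHR KO. The others kept their direction: 447 values under other tools, filters, scalings, samples and the block kept their side of the threshold and 11 newly passed it, and without single libraries 611 kept it and 6 newly passed. DESeq2 called 2 members in ARNT KO, 2 for the difference of effects and 2 between the Flox groups. No filter called 1 member between the Flox groups (Rhbg, adjusted p = 0.0410), and fitting those groups alone called 4 (Rhbg, Otc, Cdh1 and Aldh1b1), where 11.9% of all genes were called. Leaving out single libraries gave 0 to 2 members called in ARNT KO and 0 to 3 between the Flox groups, the calls coming without replicate 3 of ARNT KO and, for Rhbg, also without replicate 1 (adjusted p = 0.0309). The difference of effects then had pericentral medians of −0.37 to −0.066, periportal medians of 0.059 to 0.37 and a gap between the sets of 0.27 to 0.64, the lowest pericentral size being without replicate 2 of AHR KO. In most of these fits Ass1 passed the filter and entered the periportal median. The gap in ARNT KO was 0.20 to 0.56, and the small pericentral median of AHR KO and periportal median of ARNT KO changed sign without single libraries (−0.16 to 0.06 and −0.05 to 0.19). So did the gap in AHR KO (−0.18 to 0.10), which limma-voom (0.01) and the block (0.03) also put above 0.

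Over all genes, AHR KO gave 11 calls, 28 with no filter, 19 with at least 1 CPM in 3 libraries, 359 by DESeq2 and 5 to 136 without single libraries. ARNT KO gave 8, 56 by DESeq2, 5 by limma-voom, 1 from its own groups and 1 to 193 without single libraries. The difference of effects gave 6, 148 by DESeq2 and 1 to 194 without single libraries. The Flox groups gave 46, 572 by DESeq2, 1615 from their own groups and 12 to 1532 without single libraries. The upper ends came without replicate 3 of ARNT KO.

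The replicate block gave 10, 3, 4 and 23 calls over all genes in these contrasts and 0 members in each. In the AHR pair, same-numbered libraries had correlations of 0.01 to 0.14, with 4 of 6 libraries closest to their own number. In the ARNT pair these were −0.04 to −0.01 and 0 of 6. Between AHR Flox and ARNT KO they were 0.04 to 0.25 and 3 of 6. Whether the numbers stand for a shared factor was not tested. For the difference of effects, a fit of only the contrast's groups is the same fit and was not repeated. With 3 libraries a group, the number of animals and the spread within them limit every contrast, Ass1 could not be assessed at its depth, and the cause of the differences between settings was not tested.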

Other observations

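Other genes known to be zoned, taken from lists beyond the 35 members, passed the threshold in none of the 4 contrasts by edgeR with all 12 libraries. Of 16 further pericentral genes, 3 had an unadjusted p under 0.05 and lower levels in ARNT KO and 1 had such a p and a higher level, where 5.88% of all genes had one, with a median log2 change of −0.05. Aldh1a1, a retinaldehyde dehydrogenase, gave the smallest p of these, at 578, 693 and 642 CPM in ARNT Flox and at 1029, 1040 and 1091 in ARNT KO (0.72 ± 0.21, adjusted p = 0.569). It stood at 822, 1118 and 1480 in AHR Flox and at 1146, 819 and 761 in AHR KO, so ARNT Flox was the lowest group. Slc13a3, a dicarboxylate carrier, stood at 137, 113 and 111 CPM in ARNT Flox and at 52.3, 52.5 and 104 in ARNT KO, and at 42.0 to 78.0 in the AHR groups. Without replicate 3 of ARNT KO, 3 of the 16 were called lower in ARNT KO, where 1.37% of all genes were called: Cyp1a2 (log2 change −1.496, adjusted p = 0.000495), Slc13a3 (−1.20, adjusted p = 0.00754) and Gstm3 (−2.46, adjusted p = 0.0310). Car3 was called higher (1.24, adjusted p = 0.0196). In the library left out, Gstm3 was 1278 CPM, against 36.2 and 37.1 in its group mates and 171, 246 and 188 in ARNT Flox. Car3 was 582 CPM in that library, against 2698 and 2133 in its group mates and 987, 1076 and 1002 in ARNT Flox. For both genes that library thus lay on the other side of ARNT Flox from its group mates. In the same setting Cyp1a2 was called lower in AHR KO (−0.56, adjusted p = 0.0446, with 0.966% of all genes called), and Cyp1a2 and Slc13a3 were called for the difference of effects (1.38%). Between the Flox groups 6 of the 16 were called (10.9% of all genes), with Cyp1a2, Slc13a3 and Gstm3 higher and Aldh1a1, Pon1 and Car3 lower in ARNT Flox. DESeq2 on all libraries called 0 of the 16 in AHR KO (3.19% of all genes called) or ARNT KO (0.402%). It called Aldh1a1 for the difference of effects (adjusted p = 0.0387, with 1.08% of all genes called). Between the Flox groups DESeq2 called Slc13a3 higher and Aldh1a1 lower in ARNT Flox (4.18%).

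Of 16 further periportal genes, 0 had an unadjusted p under 0.05 in AHR KO and 2 had in ARNT KO, both higher. DESeq2 called Sox4, a transcription factor, higher in ARNT Flox than in AHR Flox, where 4.18% of all genes were called. A list of 23 further genes for amino acid and ammonia handling also includes regulators such as Cebpa and Gcgr. Of these, 21 had lower fitted levels in ARNT Flox than in AHR Flox, as did 50.1% of all genes, with a median of −0.19 and 0 called. At an unadjusted p under 0.05, 5 of them were lower, near the 19.9% of all genes that passed. Without replicate 3 of ARNT KO, Amdhd1, Cebpa and Gcgr were called lower there, near the 10.9% of all genes called. Cebpa, a transcription factor of hepatocytes, stood at 494, 496 and 444 CPM in ARNT Flox and at 866, 659 and 650 in AHR Flox (−0.60 ± 0.20, adjusted p = 0.168).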
